A study of Mus musculus with 9 samples.

Results

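The cadherins and protocadherins are the cell adhesion genes described here, chosen by symbol as every array probe for a numbered cadherin (*Cdh* followed by a number) or a protocadherin (*Pcdh*), with *Cdh23* and *Pcdh15* left out. This gave 93 probes for 75 genes, of 25697 probes and 18120 gene symbols on the array. Of the 75 genes, 66 had 1 probe and 9 had several, at most 4. RNA came from CD-1 mouse embryos at E10.5, when the otic vesicle (OV), the epithelial sac that forms the inner ear, has closed. The 3 groups were dissected and pooled OVs, the periotic tissue dissected from around them, which by the study's methods included mesenchyme and hindbrain, and whole embryos minus the otic regions (embryo-minus-otic), with 3 arrays each. No group carried a mutation or a treatment. Each array measured a pool from several embryos, and the methods name 3 separate litters. The tests behind the *q*-values therefore set differences against the spread between pools, not between single embryos.

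Cadherins are single-pass membrane proteins whose extracellular repeats bind calcium and join neighbouring cells, mostly to cells with the same cadherin. The tails of classical cadherins (types I and II) bind p120 and beta-catenin, and through alpha-catenin the actin cytoskeleton. Protocadherins have other tails, and those of the alpha, beta and gamma clusters, arrayed side by side in the genome, are best known from neurons. Epithelia typically carry cadherin-1 (E-cadherin), and neural tube and much mesenchyme carry cadherin-2 (N-cadherin).

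Of the 93 probes, 10 were for 4 type I cadherins, 15 for 10 type II cadherins, 4 for *Cdh13*, *Cdh16* and *Cdh17*, 13 for 8 non-clustered protocadherins and 51 for 50 clustered protocadherins (9 alpha, 22 beta and 20 gamma probes). Names matched a reference gene table for 74 genes by symbol and for 1 by synonym, since *Pcdh21* is now *Cdhr1*. By that reference, 50 member genes lie on chromosome 18, 7 on chromosome 8 and 6 on chromosome 14, and *Cdh3* and *Cdh1* are neighbours on chromosome 8, as *Pcdh20* and *Pcdh9* are on chromosome 14.

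Levels are log2 intensities after quantile normalization, a difference is between group means on that scale, *q* is limma's p adjusted by Benjamini-Hochberg over all 25697 probes, and a probe was called at *q* under 0.05. A probe was above background on an array where its detection p-value was under 0.01. The lowest intensity above background lay between 6.14 and 6.24 on the 9 arrays, and 11283 to 12160 probes (43.9% to 47.3%) were above background. Spearman correlations between arrays of 1 group were 0.912 to 0.923. The labels were set beside marker genes of the tissues. All 7 otic vesicle markers on the array (*Oc90*, *Fbxo2*, *Lmx1a*, *Pax2*, *Gata3*, *Col9a2*, *Dlx5*) were higher in OV than in both other groups. *Oc90*, *Fbxo2*, *Lmx1a*, *Gata3* and *Col9a2* are among the study's top OV probes, which were ranked on these same arrays. Their direction was known in advance and is no independent check of the labels. Of 11 hindbrain and neural tube markers, 7 were higher in periotic tissue than in OV. Of 6 mesenchyme markers, 6 were higher in embryo-minus-otic tissue and 1 (*Col1a1*) in periotic tissue than in OV. The other 5 did not pass between periotic tissue and OV. All 6 were lower in periotic than in embryo-minus-otic tissue, so these markers did not set periotic tissue apart by its mesenchyme. In such bulk samples fewer cells of a type and less RNA per cell cannot be told apart. Brightness depends on probe design, so no probe's level is compared with another's.

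Most members were dim. Of the 93 probes, 61 (65.6%) were above background on no array, against 45.9% of all probes on the array, and 51 of the 75 genes had no probe above background on any array. All 4 type I genes (8 of 10 probes) passed that limit on every array of 1 group or more, as did 2 of 10 type II genes, 5 of 8 non-clustered protocadherins, 1 beta and 1 gamma cluster gene. No probe for *Cdh13*, *Cdh16*, *Cdh17*, *Cdh8*, *Cdh12*, *Cdh19*, *Cdh20*, *Cdh22*, *Cdh24*, *Pcdh8* or *Pcdh9* was above background on any array. *Cdh11*, a mesenchymal cadherin with 3 probes, reached it on at most 4 of 9 arrays with any 1 probe, and *Pcdh10*, with 3 probes, on at most 3.

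**Figure D1:**
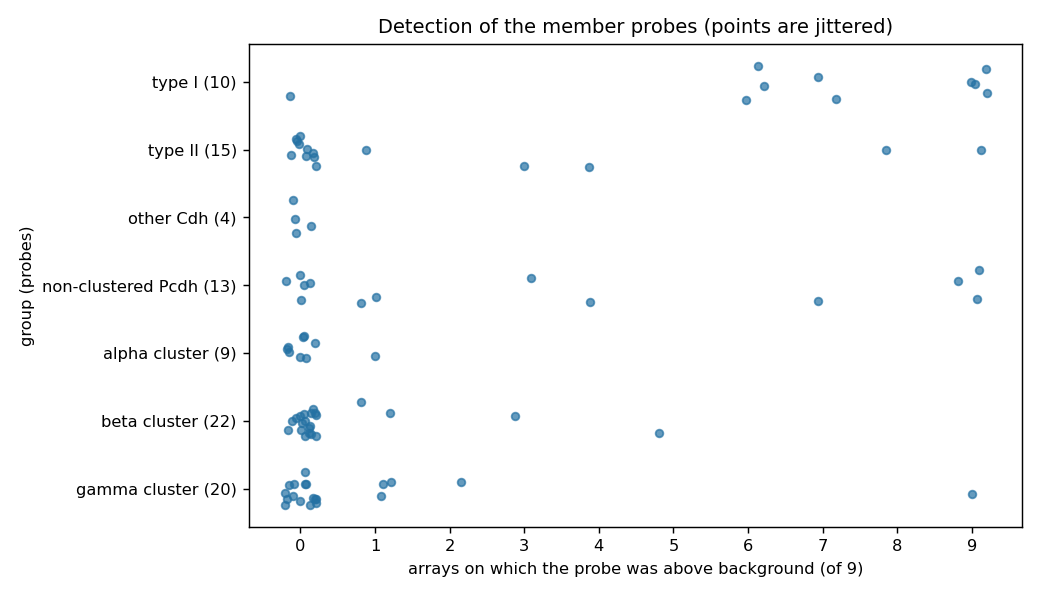
Number of arrays, of 9, on which each of the 93 probes was above background (x axis), by family (y axis, with the number of probes). Each point is a probe, shifted slightly at random so that points do not hide each other. Type I probes spread from 6 to 9 arrays apart from 1 at 0, and the clustered protocadherins crowd at 0.

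Calls among the members were few. In OV against embryo-minus-otic tissue 7 member probes (7.53%) were higher, where 5.89% of all probes were, and 2 (2.15%) were lower, where 5.51% of all were. In OV against periotic tissue 6 (6.45%) were higher, where 5.07% of all were, and 3 (3.23%) lower, where 5.15% of all were. In periotic against embryo-minus-otic tissue 1 (1.08%) was higher, where 2.86% of all were, and 5 (5.38%) lower, where 2.95% of all were. The 9 genes behind these calls are few, and the counts are no result about the family as a whole. The genes higher in OV than in both other groups were *Cdh1*, *Cdh3* and *Pcdh20*, with 5 probes, where 3.51% of all probes were. The gene lower in OV than in both was *Cdh6*, with 1 probe, where 2.65% of all probes were. The OV comparisons share the OV arrays. In all, 81 probes and 66 genes were called in no comparison. The median difference of the 93 probes was -0.012 in OV against embryo-minus-otic tissue and 0.0027 in OV against periotic tissue, and that of all probes was 0.0043 and -3.7e-05.

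**Figure D2:**
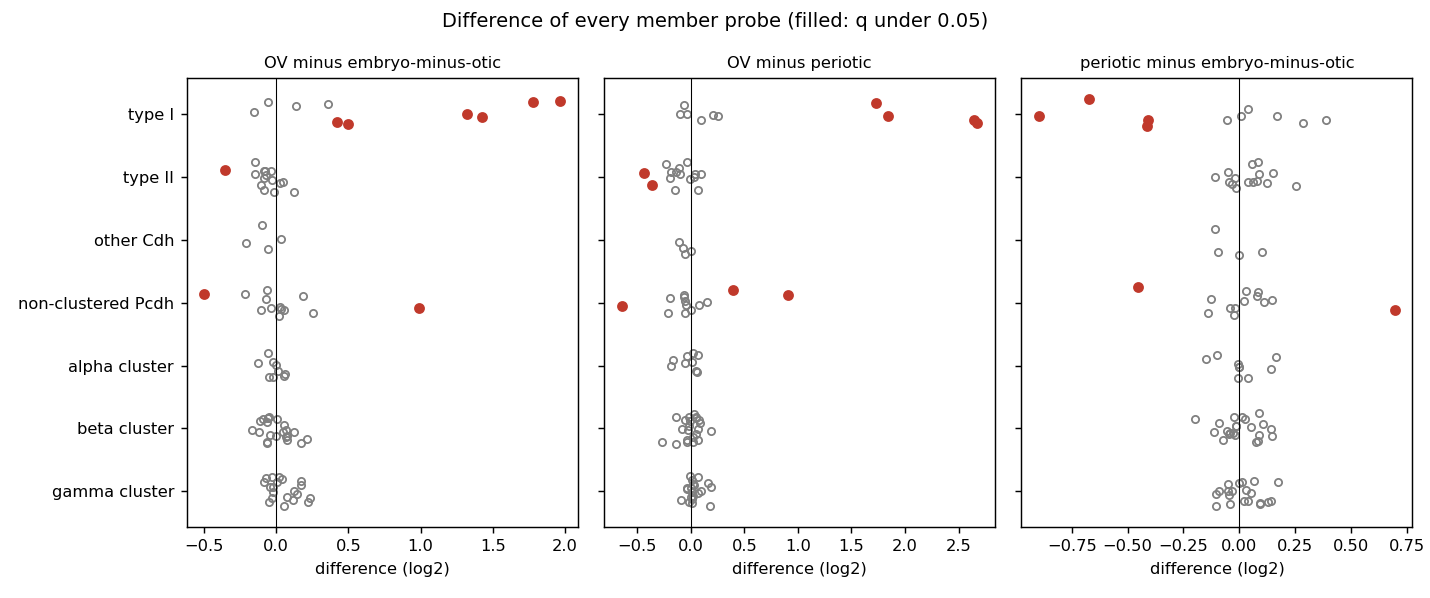
Difference on the log2 scale (x axis) of each member probe in the 3 comparisons (panels), by family (y axis). Filled red points are probes at *q* under 0.05 and open points are not. Type I probes reach 1.97 and 2.67 above embryo-minus-otic and periotic tissue, and the clustered protocadherins stay between -0.27 and 0.24.

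Among type I cadherins, *Cdh3*, which encodes P-cadherin of epithelia and placenta, differed most. The deposited intensities of its brightest probe (ILMN_3156246) were 548, 573 and 596 in OV, 79.8, 87.3 and 103 in periotic tissue, and embryo-minus-otic tissue gave 171, 216 and 128, before normalization. On the normalized log2 scale they were 8.96, 9.18 and 9.36 in OV, 6.46, 6.37 and 6.65 in periotic tissue, and embryo-minus-otic tissue had 7.39, 7.53 and 7.25. The 3 groups did not overlap, and periotic tissue was lowest. The means (± SD, n = 3) were 9.17 ± 0.201, 6.50 ± 0.140 and 7.39 ± 0.141. OV was higher than periotic tissue by 2.67 (SE 0.115), or 6.38-fold (*q* = 2.2e-10), and higher than embryo-minus-otic tissue by 1.78 (SE 0.115), or 3.43-fold (*q* = 2.73e-08). Periotic tissue fell 1.86-fold short of embryo-minus-otic tissue (difference -0.90, *q* = 1.02e-04).

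The other *Cdh3* probes allow the same comparisons on the same RNA. The second probe had 8.51, 8.74 and 9.0 in OV, 6.01, 6.08 and 6.24 in periotic tissue, and embryo-minus-otic tissue read 6.62, 6.86 and 6.87. It was higher in OV by 2.64 and 1.97 (*q* = 4.35e-10 and 1.54e-08), in the same order of groups, with 1 of 3 periotic arrays above background. The third had 7.59, 7.72 and 7.84 in OV and 6.26, 6.27 and 6.32 in embryo-minus-otic tissue, a difference of 1.43 (*q* = 3.63e-08). It was not well above background on any periotic array, so OV was at least 2.90-fold higher there, a bound set by the lowest intensities above background (*q* = 1.67e-09). The fourth was above background on no array. Its values were 5.99, 6.10 and 6.05 in OV and 5.77, 5.38 and 5.72 in embryo-minus-otic tissue, and the comparison passed the threshold (*q* = 0.0278), but no fold is given where both groups are below background.

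**Figure D3:**
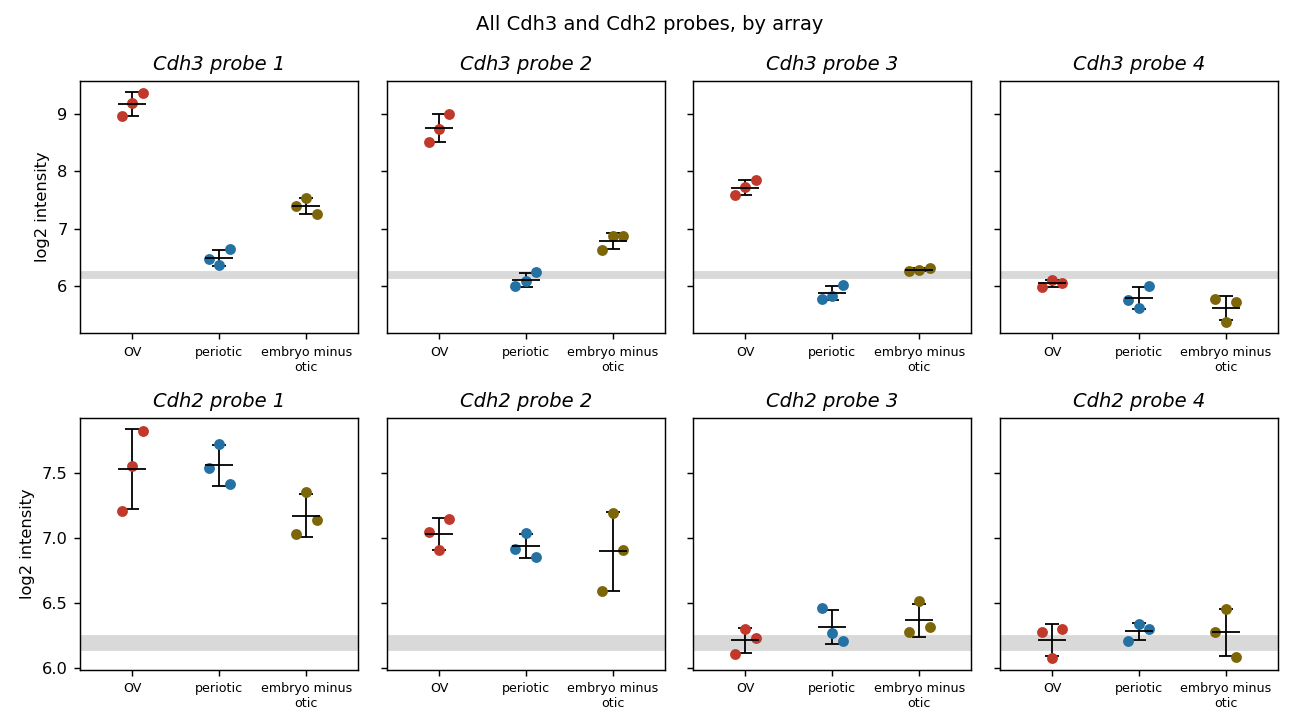
Log2 intensity (y axis) of the 4 *Cdh3* probes (top) and 4 *Cdh2* probes (bottom) on each array, by group (x axis). Points are arrays, bars the mean and SD of 3, and the grey band the range over arrays of the lowest intensity above background. *Cdh3* probes 1 to 3 are highest in OV with no overlap, and the *Cdh2* probes overlap between OV and both other groups.

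*Cdh1*, the E-cadherin of epithelial adherens junctions, had 1 probe (ILMN_2628629). Its deposited intensities were 565, 555 and 498 in OV, 166, 148 and 188 in periotic tissue, and embryo-minus-otic tissue gave 231, 224 and 184. Normalized levels were 9.0, 9.13 and 9.10 in OV, 7.50, 7.11 and 7.43 in periotic tissue, and embryo-minus-otic tissue had 7.90, 7.58 and 7.80. Every OV array was above every other array, and *Cdh1* was above background on all 9. OV was higher than periotic tissue by 1.73 (SE 0.113), or 3.32-fold (*q* = 2.52e-08), and than embryo-minus-otic tissue by 1.32 (SE 0.113), or 2.49-fold (*q* = 6.50e-07). Periotic tissue was lower than embryo-minus-otic tissue by a smaller step (difference -0.41, 1.33-fold, *q* = 0.0433). That last call did not hold with any 1 of 7 arrays left out (*q* 0.0544 to 0.223): all 3 OV arrays, periotic 2 (difference -0.29) and 3, and embryo-minus-otic 1 (-0.35) and 3. Median normalization also ended it (-0.21, *q* = 0.432). In all, the call was lost in 12 of 17 alternative fits, with *q* up to 0.741.

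Markers of epithelia moved with *Cdh1* and *Cdh3*. All 8 on the array (*Cldn4*, *Cldn6*, *Cldn7*, *Krt8*, *Krt18*, *Esrp1*, *Spint1*, *Spint2*) were higher in OV than in both other groups, and 5 of 8 were lower in periotic than in embryo-minus-otic tissue. Their summed normalized intensity was 11528 to 12004 in OV, 935 to 1280 in periotic tissue and 2046 to 2777 in embryo-minus-otic tissue, the order of group means that *Cdh3* and *Cdh1* had. The sum is weighted to the probes with the highest readings, *Cldn6* and *Esrp1* (OV means 12.5 and 11.5). Both are also among the study's top OV probes, ranked on these same arrays. Whether the share of epithelial cells in the pools set the difference of *Cdh1* or *Cdh3* was not tested.

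*Cdh2*, the N-cadherin of neural tube, heart and mesenchyme, did not pass the test with any of 4 probes. Its brightest probe read 7.21, 7.56 and 7.83 in OV, 7.54, 7.73 and 7.42 in periotic tissue, and embryo-minus-otic tissue read 7.03, 7.35 and 7.14. OV overlapped with both groups. The 95% interval of the difference was 0.06 to 0.65 for OV minus embryo-minus-otic tissue (*q* = 0.129) and -0.33 to 0.27 for OV minus periotic tissue (*q* = 0.960). The differences measured for *Cdh1* lie outside both, but no background was subtracted, which compresses differences of a dimmer probe more. Over the 17 alternative fits, neqc included, the 2 *Cdh2* differences were 0.21 to 0.52 and -0.18 to 0.13. The OV 1 array was the lowest of its group, and without it the first difference became 0.52 (*q* = 0.0193). The second probe was above background on all 9 arrays, with group means of 7.03, 6.94 and 6.90, and the other two lay near background with means between 6.21 and 6.36. Of 6 skeletal and heart muscle markers, 4 were lower in OV than in embryo-minus-otic tissue and 0 than in periotic tissue. Their summed intensity was 367 to 676 in OV, 373 to 384 in periotic tissue and 6255 to 7512 in embryo-minus-otic tissue. *Actc1*, *Myl4* and *Myl7* were each above background on 1 OV array, with OV SDs of 0.867, 1.07 and 0.454. On periotic arrays *Actc1* and *Myl7* were never above background and *Myl4* was on 1. For them a missed threshold between OV and periotic tissue does not show equal levels.

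*Cdh4*, the R-cadherin first described in retina, was near background. It had 6.40, 6.55 and 6.41 in OV, 6.31, 6.23 and 6.18 in periotic tissue, and embryo-minus-otic tissue gave 6.06, 6.07 and 5.73, where it was not well above background on any array. OV was at least 1.18-fold higher than embryo-minus-otic tissue (measured difference 0.50, SE 0.102, *q* = 0.00364). It did not pass against periotic tissue (difference 0.21, *q* = 0.279), although the arrays did not overlap.

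**Figure D4:**
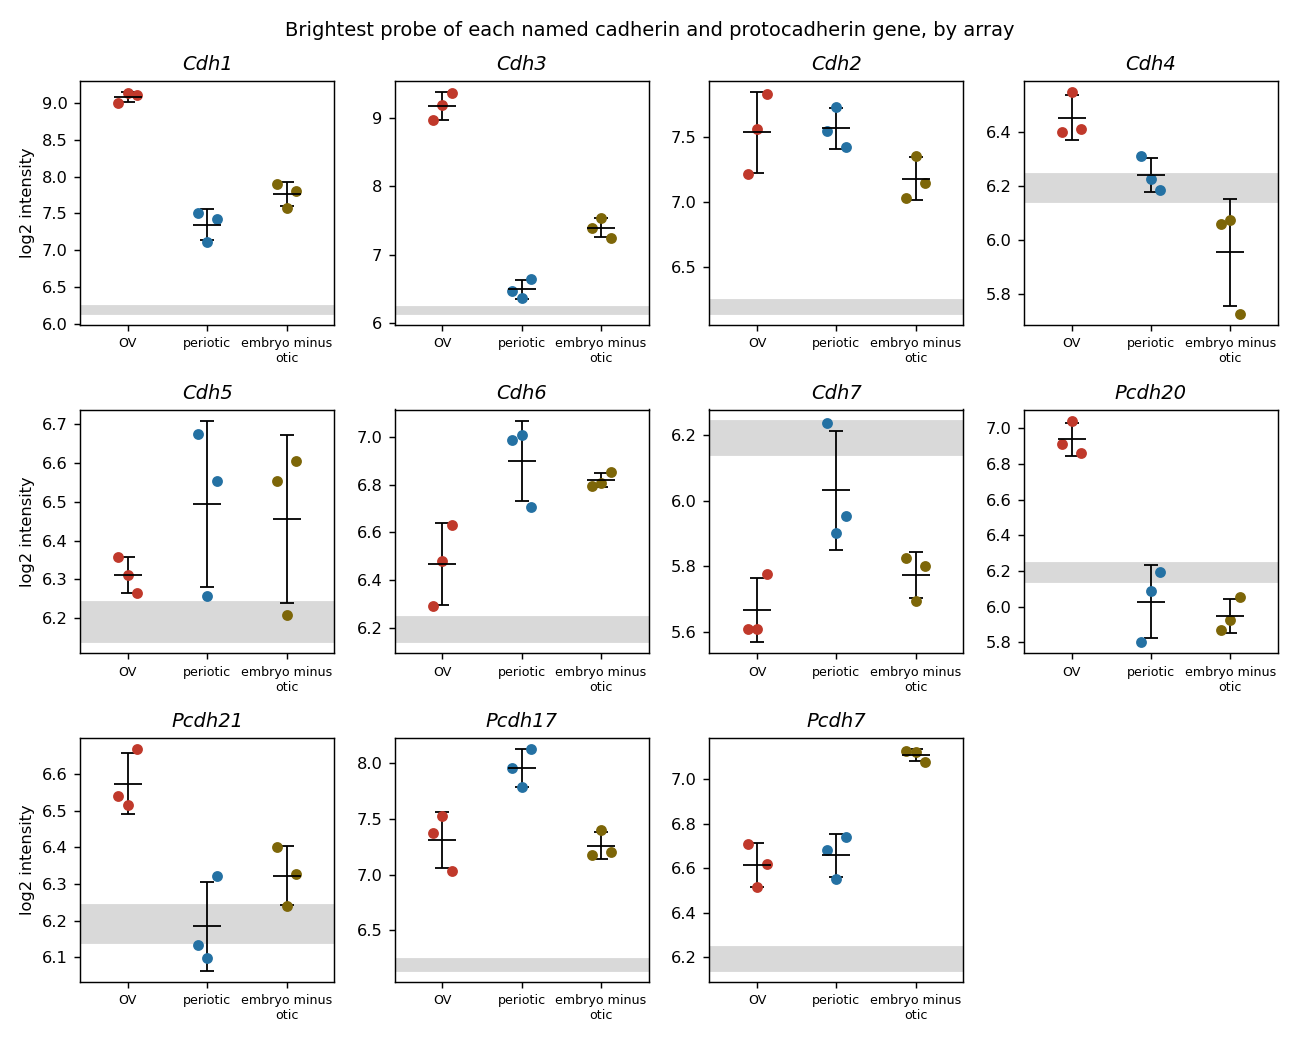
Log2 intensity (y axis, a scale of its own in each panel) of the brightest probe of the 11 genes described singly, on each array, by group (x axis). Points are arrays, bars the mean and SD of 3, and the grey band the range over arrays of the lowest intensity above background. *Cdh1*, *Cdh3* and *Pcdh20* are highest on all 3 OV arrays, *Cdh6* is lowest on them and *Cdh7* lies mostly below the band.

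Type II cadherins, known from neural tube, vessels, kidney and mesenchyme, were not called higher in OV in either comparison, and the largest positive difference in OV was 0.12. At an unadjusted p under 0.05 in limma, 0 of 15 probes were higher in OV than in embryo-minus-otic tissue, where 11.4% of all probes were, and 1 was lower, where 10% of all were. At that limit 0 were higher in OV than in periotic tissue and 3 lower, where 9.56% of all probes were in each direction. These counts are too small to set the family apart from the array. *Cdh6*, a cadherin of kidney tubules, hindbrain and neural crest, read 6.29, 6.48 and 6.63 in OV, 6.99, 7.01 and 6.71 in periotic tissue, and embryo-minus-otic tissue had 6.80, 6.81 and 6.85. All 3 OV arrays lay below the other 6. *Cdh6* was lower in OV than in periotic tissue by 1.35-fold (difference -0.43, SE 0.106, *q* = 0.0133) and than in embryo-minus-otic tissue by 1.28-fold (-0.35, SE 0.106, *q* = 0.0434). Of 17 alternative fits, the first call was lost in 4 (*q* up to 0.153) and the second in 10 (*q* up to 0.256). Losses of the first included the fits without OV 1 (-0.34, *q* = 0.0819), periotic 1 (*q* = 0.0711) and periotic 2 (*q* = 0.0722). Losses of the second included the fits without any 1 of 6 arrays (*q* 0.0576 to 0.205). Those arrays were OV 1 and 2, periotic 1 and all 3 embryo-minus-otic arrays. With the background removed (limma's neqc), the differences were -0.72 (*q* = 0.0252) and -0.60 (*q* = 0.0537).

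*Cdh7*, a neural type II cadherin, was above background on 1 array, periotic 1. It read 5.61, 5.61 and 5.78 in OV and 6.24, 5.90 and 5.95 in periotic tissue. The difference of -0.36 was called (*q* = 0.0292), but no fold is given, because the bound from the lowest intensity above background was under 1. The call was lost in 6 of 15 alternative fits, with *q* up to 0.650. Among these were the fits without OV 1 (*q* = 0.106), OV 2 (*q* = 0.113) and periotic 1 (-0.26, *q* = 0.163). The name *Cdh7* has also been used for *Cdh20*, which has a probe of its own that was above background on no array.

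*Cdh5*, the VE-cadherin of endothelial junctions, was near background and was not called. It read 6.36, 6.31 and 6.26 in OV, 6.67, 6.26 and 6.55 in periotic tissue, and embryo-minus-otic tissue read 6.55, 6.21 and 6.61. The probe was above background on 2 of 3 embryo-minus-otic arrays. The 95% intervals were -0.40 to 0.11 for OV minus embryo-minus-otic tissue and -0.44 to 0.07 for OV minus periotic tissue. No background was subtracted, so these intervals are for differences compressed by background. With the background removed by neqc, the differences were -0.26 and -0.33 and were not called (*q* = 0.624 and 0.539). Of the 10 endothelial markers on the array, 7 were lower in OV than in embryo-minus-otic tissue and 6 lower than in periotic tissue. *Pecam1* was 1.53-fold and *Esam* 1.95-fold lower in OV than in embryo-minus-otic tissue. Whether *Cdh5* departed from these markers was not tested.

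Markers of other tissues also differed between OV and the other groups, in patterns that match *Cdh6* in part. Of 11 hindbrain and neural tube markers, 6 were lower in OV than in embryo-minus-otic tissue and 7 lower than in periotic tissue, among them *Hoxb2* (10.8-fold) and *Nes* (4.52-fold), and 6 were higher in periotic than in embryo-minus-otic tissue, where *Cdh6* did not pass (difference 0.08, *q* = 0.810). Their summed normalized intensity was 1584 to 1838 in OV, 7385 to 8453 in periotic tissue and 3185 to 4097 in embryo-minus-otic tissue, while *Pax6*, *Pax7*, *Sox1* and *Tubb3* were above background on no array. The endothelial markers summed to 2216 to 2916 in OV, 3729 to 4074 in periotic tissue and 3932 to 4627 in embryo-minus-otic tissue, and their lowest *q* between the non-otic groups was 0.0536. The part of neural or endothelial tissue in the *Cdh6*, *Cdh7* and *Pcdh17* differences was not tested.

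The non-clustered protocadherins held the other calls, in both directions. *Pcdh20* has 1 probe. Its deposited intensities were 129, 127 and 106 in OV, 51.2, 70.8 and 72.1 in periotic tissue, and embryo-minus-otic tissue gave 76.8, 63.7 and 58.2. Normalized levels were 6.91, 7.04 and 6.86 in OV, 5.80, 6.09 and 6.20 in periotic tissue, and embryo-minus-otic tissue had 5.87, 5.92 and 6.05. The probe passed the background limit on 3 OV arrays, 1 periotic array and 0 embryo-minus-otic arrays. OV was at least 1.65-fold higher than embryo-minus-otic tissue (measured difference 0.99, SE 0.107, *q* = 7.75e-06) and higher than periotic tissue by a measured difference of 0.91 (SE 0.107, *q* = 1.87e-05). Since 2 of the 3 periotic arrays were at background, no exact fold is given for that comparison. With the background removed by neqc, these differences were 1.79 and 1.61.

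*Pcdh21*, now *Cdhr1*, is best known as a cadherin of photoreceptor outer segments. It read 6.54, 6.52 and 6.67 in OV, 6.13, 6.10 and 6.32 in periotic tissue, and embryo-minus-otic tissue read 6.40, 6.24 and 6.33. The OV arrays were the 3 highest. OV was higher than periotic tissue, where 1 of 3 arrays was above background (measured difference 0.39, SE 0.0921, *q* = 0.0105), a call lost without OV 3 (*q* = 0.0566), periotic 1 (*q* = 0.0510) or periotic 2 (*q* = 0.0603). Against embryo-minus-otic tissue the difference of 0.25 did not pass (*q* = 0.104).

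*Pcdh17*, known from axons and synapses of the brain, was highest in periotic tissue. It read 7.96, 7.78 and 8.13 there, 7.37, 7.53 and 7.04 in OV and 7.17, 7.40 and 7.20 in embryo-minus-otic tissue. The periotic arrays did not overlap with the others, while OV and embryo-minus-otic tissue did. Periotic tissue was 1.56-fold higher than OV (difference of OV -0.64, SE 0.125, *q* = 0.00238) and 1.62-fold higher than embryo-minus-otic tissue (0.70, *q* = 0.00234).

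*Pcdh7* was highest in embryo-minus-otic tissue. Its brightest probe read 7.13, 7.12 and 7.08 there, 6.71, 6.51 and 6.62 in OV and 6.68, 6.55 and 6.74 in periotic tissue. OV was 1.41-fold lower (difference -0.50, SE 0.0881, *q* = 0.00108) and periotic tissue 1.37-fold lower (-0.45, *q* = 0.00452) than embryo-minus-otic tissue. OV and periotic tissue overlapped (difference -0.04, 95% interval -0.23 to 0.14). The other *Pcdh7* probes, which may target other parts of the transcript, were above background on no array. *Pcdh18* was above background on all 9 arrays and not called, with group means of 6.39, 6.45 and 6.50 in OV, periotic and embryo-minus-otic tissue.

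The sequences before the start sites of the called protocadherins are shown so that the start regions of genes with different patterns can be read side by side. They are the 250 bases upstream of the RefSeq start, from the GRCm38.p6 build and read 5′ to 3′ on the gene's strand. *Pcdh20* is at chr14:88471397-88471646 on the minus strand, *Pcdh21* at chr14:37098348-37098597 on the minus strand, *Pcdh17* at chr14:84443313-84443562 on the plus strand and *Pcdh7* at chr5:57717831-57718080 on the plus strand. Capitals mark CAGGTG on either strand (CACCTG when read on the other), an E-box that Snail and ZEB repressors bind in the *Cdh1* promoter.
Pcdh20: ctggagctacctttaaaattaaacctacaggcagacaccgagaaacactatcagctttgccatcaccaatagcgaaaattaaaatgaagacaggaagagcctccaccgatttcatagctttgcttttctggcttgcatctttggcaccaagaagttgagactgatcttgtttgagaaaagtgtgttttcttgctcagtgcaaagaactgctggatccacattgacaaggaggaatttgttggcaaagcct
Pcdh21: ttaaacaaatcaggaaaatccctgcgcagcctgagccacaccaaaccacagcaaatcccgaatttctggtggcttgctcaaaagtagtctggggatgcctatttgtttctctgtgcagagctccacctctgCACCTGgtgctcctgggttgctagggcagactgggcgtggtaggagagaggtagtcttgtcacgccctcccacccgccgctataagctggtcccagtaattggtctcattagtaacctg
Pcdh17: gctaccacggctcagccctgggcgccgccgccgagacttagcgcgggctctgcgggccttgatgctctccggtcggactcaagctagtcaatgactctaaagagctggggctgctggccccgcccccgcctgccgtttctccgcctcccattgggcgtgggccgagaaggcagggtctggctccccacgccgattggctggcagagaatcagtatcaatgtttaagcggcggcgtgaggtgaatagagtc
Pcdh7: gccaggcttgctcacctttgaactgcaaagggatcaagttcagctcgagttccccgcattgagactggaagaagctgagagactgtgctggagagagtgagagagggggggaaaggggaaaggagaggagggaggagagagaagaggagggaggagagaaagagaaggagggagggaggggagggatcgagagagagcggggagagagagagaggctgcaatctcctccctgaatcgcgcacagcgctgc

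The *Pcdh21* window holds 1 match, whose first base is at -119 from the start, and the other 3 hold none, where 17.2% of 32851 RefSeq windows of this length hold at least 1. GC content was 42.4% for *Pcdh20* with 3 CG dinucleotides, 53.2% for *Pcdh21* with 6, 64.8% for *Pcdh17* with 21 and 58.4% for *Pcdh7* with 7. The median of all windows was 52.4% with 6 CG dinucleotides. The *Pcdh20* window is the poorest in CG of the 4, and the *Pcdh17* window the richest. RefSeq windows were at hand for 15 member genes, but not for *Cdh1*, *Cdh2*, *Cdh3*, *Cdh4* or *Cdh5*. *Cdh7* has 3 start sites, of which 2 have a match.

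The clustered protocadherins, which give neurons distinct surface codes, made up 51 of the 93 probes. Of these, 41 were above background on no array and 1, *Pcdhga4*, on all 9. *Pcdhga4* had group means of 6.29, 6.37 and 6.28 in OV, periotic and embryo-minus-otic tissue, and was not called. *Pcdhb22* was above background on the 3 embryo-minus-otic arrays, 2 periotic arrays and no OV array, with levels of 6.17, 6.14 and 6.06 in OV and 6.21, 6.35 and 6.30 in embryo-minus-otic tissue. Its difference of -0.17 did not pass (*q* = 0.414). With limma, 0 of the 51 probes were called in any comparison. At an unadjusted p under 0.05, 3 were higher and 0 lower in OV than in embryo-minus-otic tissue (11.4% and 10% of all probes), 2 were higher and 1 lower in OV than in periotic tissue (9.56% of all probes each), and 0 were higher and 1 lower in periotic than in embryo-minus-otic tissue (8.58% and 7.37% of all probes). Their lowest *q* was 0.119. Where in the transcript each probe lies was not given, and alpha and gamma genes share their last exons, so their probes may not be specific to 1 gene. For probes below background, a missed threshold does not show that levels were equal.

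Among the partners of classical cadherins, each gene is given by its brightest probe. Of 10 catenins and linkers on the array, 2 were higher in OV than in both other groups. *Ctnna1*, the alpha-catenin that links the cadherin complex to actin, was 1.31-fold and 1.25-fold higher in OV than in embryo-minus-otic and periotic tissue (*q* = 0.00707 and 0.0269). *Ctnnal1*, a relative of alpha-catenin, was 1.30-fold and 1.21-fold higher (*q* = 0.00540 and 0.0458). *Ctnnb1*, which encodes beta-catenin, was bright on every array, with group means of 12.6 in all 3 groups and differences in OV of -0.03 and 0.04 (*q* = 0.936 and 0.912). *Ctnnd2*, a p120 relative of neurons, was 1.79-fold lower in OV than in periotic tissue (*q* = 1.5e-04). *Ctnnd1* (p120) and *Jup* (plakoglobin) were above background on no array.

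Of 13 desmosome genes, 3 were higher in OV than in embryo-minus-otic tissue and 4 higher than in periotic tissue, and the other 9 were above background on no array. *Pkp2*, a plaque protein, was 1.51-fold and 1.78-fold higher in OV (*q* = 0.00187 and 7.45e-05). *Pkp3* was higher than in embryo-minus-otic tissue, where 1 of 3 arrays was above background (measured difference 0.64, *q* = 0.00106), and at least 1.49-fold higher than in periotic tissue (*q* = 1.59e-04). *Dsg2*, a desmosomal cadherin above background on 2 of 3 embryo-minus-otic arrays, was 1.36-fold and at least 1.51-fold higher (*q* = 0.0232 and 6.87e-04). *Dsp*, desmoplakin, was higher in OV than in periotic tissue, where 1 of 3 arrays was above background (measured difference 1.37, *q* = 8.17e-07), and did not pass against embryo-minus-otic tissue (difference 0.38, *q* = 0.0575). Nectins build adherens junctions beside cadherins. Of 5 genes listed, which were nectins and their relative *Pvr*, 2 were higher in OV than in embryo-minus-otic tissue and 1 than in periotic tissue. *Pvrl2* was 1.51-fold and 1.99-fold higher in OV (*q* = 2.70e-04 and 1.18e-06). *Pvr*, the nectin relative, was above background on 1 OV array only and was higher in OV than in embryo-minus-otic tissue (measured difference 0.33, *q* = 0.0497). *Pvrl3* was not called in OV against either group, and *Pvrl1* and *Pvrl4* were above background on no array.

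**Figure D5:**
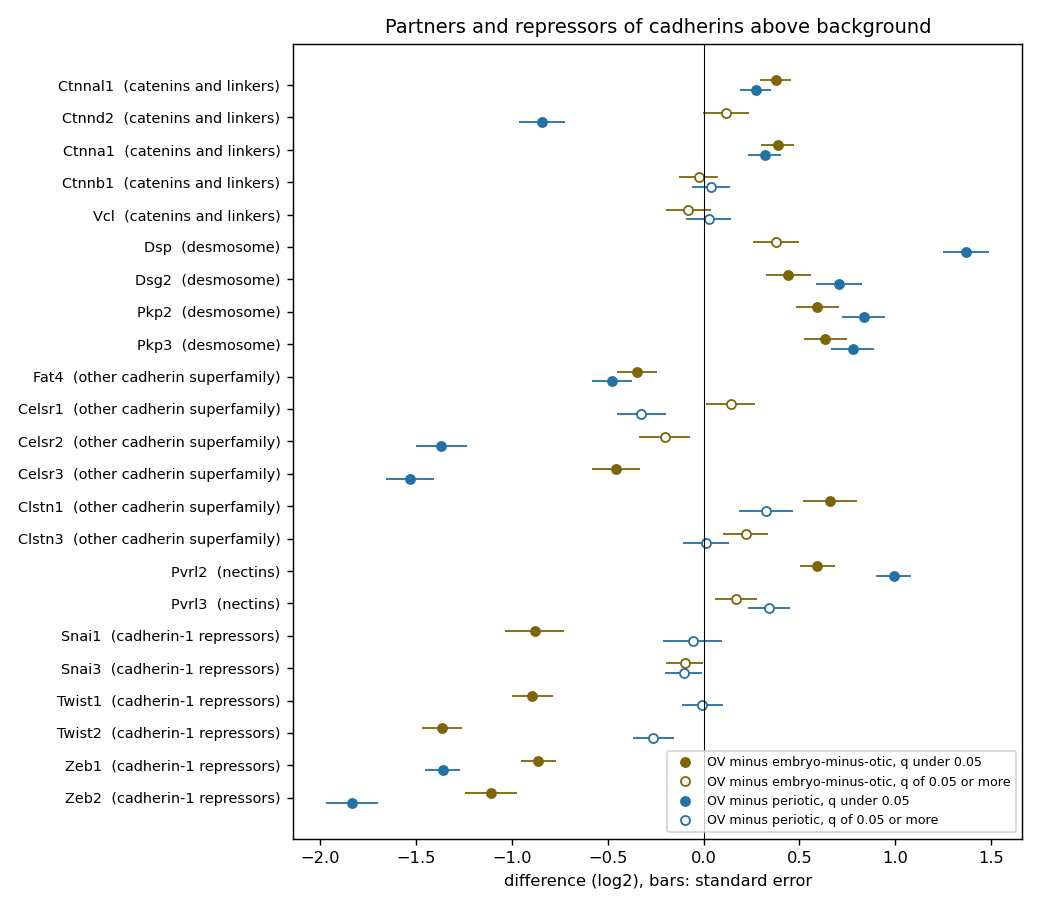
Difference of OV on the log2 scale (x axis, bars are standard errors) from embryo-minus-otic tissue (olive) and periotic tissue (blue) for partners, relatives and repressors of cadherins (y axis, list in parentheses) that passed the background limit on every array of 1 group or more. Filled points are at *q* under 0.05. The desmosome genes lie right of 0, and *Zeb1* and *Zeb2* lie left of 0 in both comparisons.

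Of 9 other genes of the cadherin superfamily on the array, 1 was higher and 2 were lower in OV than in embryo-minus-otic tissue, and 3 were lower than in periotic tissue. *Celsr2* and *Celsr3*, seven-pass cadherins of planar polarity and neurons, were 2.58-fold and 2.89-fold lower in OV than in periotic tissue (*q* = 2.17e-06 and 3.57e-07). *Fat4* was lower in OV than in both groups (1.39-fold and 1.27-fold, *q* = 0.00571 and 0.0418). *Clstn1*, a calsyntenin, was 1.58-fold higher in OV than in embryo-minus-otic tissue (*q* = 0.00500).

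Most known repressors of *Cdh1* on the array were lower in OV than in embryo-minus-otic tissue. Of 6, this held for 5, and 2 were lower in OV than in periotic tissue. *Zeb1* and *Zeb2*, zinc-finger repressors of epithelial genes, were 2.57-fold and 3.56-fold lower in OV than in periotic tissue (*q* = 3.31e-08 and 1.11e-07) and 1.82-fold and 2.16-fold lower than in embryo-minus-otic tissue (*q* = 6.24e-06 and 2.93e-05). *Snai1*, *Twist1* and *Twist2* were 1.84-fold, 1.86-fold and 2.57-fold lower in OV than in embryo-minus-otic tissue (*q* = 0.00102, 2.12e-05 and 1.98e-07) and did not pass against periotic tissue (differences -0.06, -0.01 and -0.26). *Snai3* was not called. *Zeb1* and *Zeb2* were higher in periotic than in embryo-minus-otic tissue (differences 0.50 and 0.72, *q* = 0.00267 and 0.00343). In the same comparison *Snai1*, *Twist1* and *Twist2* were lower (differences -0.82, -0.89 and -1.10, *q* = 0.00353, 5.26e-05 and 5.69e-06). Whether any of these repressors set the level of *Cdh1* was not tested. The symbol *Tcf3* has also been used for *Tcf7l1* and was left out of the list. *Twist1* is also one of the mesenchyme markers, whose summed intensity was 1124 to 1298 in OV, 1164 to 1500 in periotic tissue and 2225 to 2651 in embryo-minus-otic tissue. Of 4 proteases that shed cadherins, *Adam15* (1.33-fold, *q* = 0.0151) and *Psen2* (1.27-fold, *q* = 0.0360) were higher in OV than in embryo-minus-otic tissue, where 2 of 3 arrays were above background for *Psen2*.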

How the data were processed

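Pooled E10.5 tissue was profiled on 9 1-colour Illumina MouseRef-8 v2.0 arrays. For every probe on every array the authors deposited GenomeStudio's average signal, an intensity not normalized between arrays, and the deposited detection p-value, the rank of that signal among negative controls. Background subtraction and the slide of each array are not given in the sources used here, and arrays were grouped by the tissue in their labels. The number of arrays limits the precision.

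Intensities were log2 transformed and quantile normalized. All 25697 probes were fitted in limma 3.58.1 (R 4.3.3) as 1 model of 3 groups with an empirical Bayes prior, and each comparison was adjusted by Benjamini-Hochberg over all probes. No background was subtracted, so folds of dim probes are compressed. Where no array of a group was above background, a fold is a bound against the lowest intensity above background. The steps were tested on simulated data.

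The brightest probe on average stands for a gene. Genes named were type I and II cadherins above background on all arrays of a group, the 5 genes with the largest called difference in each direction and comparison, and those called in 1 direction against both other groups. Values of *Pcdh18*, *Pcdhga4* and *Pcdhb22* were chosen after they were seen, being above background on all arrays of a group. The members and lists were chosen with earlier results of these data known. The alternatives were neqc (offset 16), median or no normalization, only probes above background (detection p under 0.01 or 0.05), a fit of just the groups compared, replicate numbers taken as blocks, a prior with an intensity trend and leaving out 1 array at a time. RefSeq promoter windows and gene names are from GRCm38.p6.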

Additional observations from a re-analysis of the deposited data

How the results depend on the processing

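The calls of *Cdh1*, *Cdh3* and *Pcdh20* in OV against both other groups held under all 17 alternatives. The counts of probes higher in OV stayed within 1.5 times under each of them, and the counts of lower probes did not. Probes lower in OV than in both other groups, 1 in the report, were 0 with neqc, median normalization, no normalization or the intensity trend. Those lower in OV than in embryo-minus-otic tissue, 2 in the report, were 1 with median normalization or the trend and 0 with no normalization. Those lower in OV than in periotic tissue, 3 in the report, were 1 with median or no normalization, and those lower in periotic than in embryo-minus-otic tissue, 5 in the report, were 3 and 2 with these. Leaving out 1 array at a time, the counts were 6 to 7 higher and 1 to 2 lower in OV than in embryo-minus-otic tissue, 5 to 6 higher and 1 to 3 lower than in periotic tissue, 5 higher and 0 to 1 lower than in both, and 1 higher and 3 to 5 lower in periotic than in embryo-minus-otic tissue.

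Of the 11 genes described singly, called differences stayed called in 246 fits and missed the threshold in 41. These 41 were differences of *Cdh1* and *Pcdh7* between the non-otic groups, of *Cdh6*, *Cdh7*, *Pcdh17* and *Pcdh21* in OV against periotic tissue, and of *Cdh4*, *Cdh6* and *Pcdh7* in OV against embryo-minus-otic tissue. With no normalization *Cdh4* (*q* = 0.485), *Pcdh21* against periotic tissue (*q* = 0.509) and *Pcdh7* (*q* = 0.0603 and 0.276) were among them, and with median normalization *Pcdh17* against periotic tissue (*q* = 0.053) and *Pcdh7* between the non-otic groups (*q* = 0.144). With neqc, the other called differences that grew by over 1.5 times were those of *Cdh4* (0.95) and *Pcdh7* (-0.76) in OV minus embryo-minus-otic tissue, *Pcdh21* (0.75) in OV minus periotic tissue, and *Cdh3* (-1.35) and *Pcdh7* (-0.69) between the non-otic groups. Uncalled differences changed sign in 9 fits. With no normalization *Cdh5* was -0.027 and *Pcdh20* -0.042 in periotic minus embryo-minus-otic tissue. With arrays left out, *Cdh2* in OV minus periotic tissue ranged from -0.18 to 0.13, *Pcdh17* in OV minus embryo-minus-otic tissue from -0.055 to 0.19, *Pcdh7* in OV minus periotic tissue from -0.097 to 0.0065, and *Cdh5* and *Pcdh20* between the non-otic groups from -0.083 to 0.16 and from -0.0045 to 0.20. The cause of these changes was not tested.

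The deviations of same-numbered arrays from their group means correlated above 0 in 9 of 9 pairs (0.0108 to 0.234) and over 0.1 in 5, and those of different-numbered arrays in 5 of 18 (-0.192 to 0.0637). The sources do not say that a number marks a litter, and not every pair passed 0.1, so the arrays were not paired, and whether same-numbered arrays share a litter is not known. With the replicate block 7 probes were higher and 2 lower in OV than in embryo-minus-otic tissue, as without it, and no count of calls changed. *Cdh7* could not be fitted with only probes above background, since it did not pass that filter.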
